A study of Homo sapiens with 11 samples.

Results

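The sites described here are stretches of the genome of 92-1 cells where MITF and TFAP2A were found together and SOX10 was not. They were selected on measured peaks: each is a MITF peak from DMSO-treated cells that shared at least 1 bp with a TFAP2A peak and no base with a SOX10 peak of the same condition. Of 89519 DMSO MITF peaks, 7037 (7.86%) met this rule. Another 36450 MITF peaks carried both TFAP2A and SOX10, 35344 carried neither, and 10688 carried SOX10 without TFAP2A. The presence of MITF and TFAP2A and the absence of SOX10 in DMSO were therefore fixed by the choice of sites and are no result. The peaks under FHT-1015, SMARCA4, H3K27ac, position and sequence were not used to choose them.

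The cells were of 1 established line, 92-1, derived from a uveal melanoma. They received either DMSO, the solvent, or FHT-1015, which inhibits SMARCA4 and SMARCA2, for 4 h in both conditions. Chromatin immunoprecipitation and sequencing was done with 5 antibodies, against MITF, TFAP2A (AP-2 in the sample titles), SOX10, SMARCA4 and H3K27ac. The titles do not name the AP-2 family member, so TFAP2A here stands for the target of the AP-2 antibody. There was 1 library per antibody and condition. With no replicate library there is no test across samples, and the 95% Wilson intervals given below cover counting error only. The SOX10 libraries carried other identifier prefixes than the remaining libraries, of unstated meaning, and the part of this in the results was not tested. As a check of the labelled line, H3K27ac peaks were counted at pigment genes within 10 kb of the gene: PMEL had 9 in DMSO and 7 under FHT-1015, MLANA 11 and 8, TYR 4 and 4, TYRP1 1 and 1, and DCT 5 and 3.

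MITF is the basic helix-loop-helix leucine zipper factor of the melanocyte lineage and binds E-boxes of the sequence CACGTG or CATGTG. TFAP2A is an AP-2 factor that binds GC-rich palindromes of the form GCCNNNGGC, and SOX10 is an HMG-box factor that specifies neural crest derivatives and drives MITF expression in melanocytes. SMARCA4 and SMARCA2 are the alternative ATPase motors of the BAF complexes, which slide or evict nucleosomes and so open DNA to such factors, and acetylation of histone H3 at lysine 27 marks active enhancers and promoters. At 4 h of ATPase inhibition, the question put to these sites was whether MITF or TFAP2A stayed where no SOX10 peak had been.

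Of these sites, 162 promoter windows of 159 genes held the MITF summit, so that the bases under the peak could be read from RefSeq (GRCh38.p14; 250 bases before to 50 after a transcription start). The following stretches lie before the start, on the strand of the gene, within 60 bases of the summit. Windows with fewer than 60 such bases, and all windows of an autosome, were left out before ranking, so stronger windows may be missing. Among the windows left, those printed are the protein-coding ones with the strongest MITF peaks in each fate under FHT-1015. They were picked after the values were seen, and are shown so that the bases under kept and lost peaks can be compared. Capitals mark the E-boxes CACGTG and CATGTG and the AP-2 palindrome GCCNNNGGC, each searched on both strands. A CATGTG on the other strand reads CACATG.
PRICKLE3: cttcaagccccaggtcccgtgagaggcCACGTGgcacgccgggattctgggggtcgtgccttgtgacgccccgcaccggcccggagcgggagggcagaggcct
APLN: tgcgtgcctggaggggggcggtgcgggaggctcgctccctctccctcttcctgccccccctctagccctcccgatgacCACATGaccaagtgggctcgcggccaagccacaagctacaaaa
DHX34: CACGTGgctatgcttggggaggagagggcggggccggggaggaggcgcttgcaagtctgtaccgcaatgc
GPX4: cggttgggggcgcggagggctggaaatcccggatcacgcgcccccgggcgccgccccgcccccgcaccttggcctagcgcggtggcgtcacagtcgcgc
SNAP91: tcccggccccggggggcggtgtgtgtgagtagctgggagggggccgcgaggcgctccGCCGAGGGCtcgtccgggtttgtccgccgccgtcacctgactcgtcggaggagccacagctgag
BRI3: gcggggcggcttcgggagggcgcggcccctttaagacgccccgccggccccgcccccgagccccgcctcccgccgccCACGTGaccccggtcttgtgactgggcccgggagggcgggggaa
PGCKA1: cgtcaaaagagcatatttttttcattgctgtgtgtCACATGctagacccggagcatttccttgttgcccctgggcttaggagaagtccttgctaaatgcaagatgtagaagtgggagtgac
CEACAM1: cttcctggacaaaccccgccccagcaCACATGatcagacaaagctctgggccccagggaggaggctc
CEL: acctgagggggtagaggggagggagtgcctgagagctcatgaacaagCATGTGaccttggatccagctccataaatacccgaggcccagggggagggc
FMN1: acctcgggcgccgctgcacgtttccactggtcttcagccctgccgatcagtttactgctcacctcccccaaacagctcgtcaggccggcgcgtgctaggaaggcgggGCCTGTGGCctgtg

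The first group of these promoters had peaks of both factors under FHT-1015. At PRICKLE3 (chrX:49186521-49186623, minus strand), a planar cell polarity gene, the MITF peak had a −log10 p of 37.0 in DMSO and 11.2 under FHT-1015, and the TFAP2A peak 134 and 94.5. These −log10 p values are the authors' own for each peak, and since each list was called on its own library, pairs of values are set side by side and not read as a change. At APLN (chrX:129654979-129655099, minus strand), which encodes the peptide hormone apelin, MITF had 27.2 and 20.9 and TFAP2A 16.97 and 19.2. At DHX34 (chr19:47349065-47349134, plus strand), an RNA helicase gene of nonsense-mediated decay, the values were 26.9 and 36.3 for MITF and 9.42 and 7.98 for TFAP2A. Each of these stretches holds an E-box.

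At the next promoters TFAP2A had a peak under FHT-1015 and MITF did not. GPX4 (chr19:1104551-1104649, plus strand) encodes the glutathione peroxidase that reduces lipid hydroperoxides. Its MITF peak had 23.6 in DMSO, its TFAP2A peaks 75.4 in DMSO and 87.3 under FHT-1015, and its H3K27ac peaks 76.4 and 107. SNAP91 (chr6:83709122-83709242, minus strand), a clathrin assembly gene, had 22.2 for MITF in DMSO, and 8.67 and 11.7 for TFAP2A. BRI3 (chr7:98281522-98281642, plus strand) had 19.7 for MITF in DMSO, and 9.91 and 9.60 for TFAP2A. The GPX4 stretch has none of the motifs searched, the SNAP91 stretch has GCCNNNGGC and the BRI3 stretch has CACGTG.

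Neither factor had a peak under FHT-1015 at PGCKA1 (chr4:37583990-37584110, plus strand), CEACAM1 (chr19:42528482-42528548, minus strand) or CEL (chr9:133061883-133061980, plus strand). Their DMSO values were 23.4, 22.3 and 16.3 for MITF and 20.6, 5.79 and 34.2 for TFAP2A. CEACAM1 encodes a cell adhesion molecule and CEL the carboxyl ester lipase of pancreatic juice, and each of these stretches holds a CATGTG or its reverse complement. FMN1 (chr15:33194749-33194869, minus strand), a formin gene of the actin cytoskeleton, kept only MITF, with 11.7 in DMSO and 6.26 under FHT-1015, and a weak TFAP2A peak of 2.52 in DMSO. Among these examples an E-box thus lay under kept and lost MITF peaks alike.

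Over the whole set of windows, E-boxes were more frequent than in promoters at large. CACGTG was in 22.2% (16.5 to 29.2) of the 162 windows and CATGTG in 23.5% (17.6 to 30.5), against 7.26% and 11.1% of all 35116 RefSeq promoter windows. Windows whose MITF peak also carried SOX10 numbered 4569, of which 24.7% held CACGTG and 10.5% (9.65 to 11.4) CATGTG. The interval of the CATGTG share thus lay above that of the windows with SOX10, and that of the CACGTG share did not. Some windows shared a MITF peak: 54 windows where both factors were kept lay over 48 peaks, and 37 where neither was kept over 33. The intervals count each window as independent and so understate the counting error. Either E-box was in 50% (37.9 to 62.1) of the 62 windows where MITF had an FHT-1015 peak and in 38% (29.1 to 47.8) of the 100 where it had none, and these intervals overlap. The 8-base forms TCACGTGA and TCATGTGA, which contain the E-boxes, were in 1.85% (0.632 to 5.30) and 3.09% (1.33 to 7.02) of the windows, against 5.67% and 2.36% with SOX10 and 0.980% and 1.00% of all windows.

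The AP-2 motif GCCNNNGGC was in 33.95% (27.1 to 41.5) of these windows, 33.5% of those with SOX10 and 23.2% of all windows. The SOX-type motifs ACAAAG and ACAATG were in 10.5% and 9.26%, against 10.4% and 6.96% with SOX10 and 16.1% and 10.8% of all. Base composition differed too, with a median GC content of 64.2% here, 66% in windows with SOX10 and 58.7% in all windows. A match is a description of these letters only, and sites away from promoters were not searched.

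MITF and TFAP2A were mostly modest peaks at these sites. The median MITF −log10 p was 6.42, against 13.8 at sites with SOX10 and 4.80 at MITF peaks with neither partner. A −log10 p of at least 10 was reached by 26.2% of the sites and by 59.0% of those with SOX10. The highest value at a site was 134, where the DMSO MITF list reached 412. The median TFAP2A peak had 10.6 here and 34.9 at sites with SOX10. The sites were also narrower, with a median width of 272 bp against 429 bp, and their median fold enrichment over background, as the authors gave it, was 4.03 against 5.66.

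They lay mostly away from promoters. Of the sites, 663 (9.42%) were within 1 kb of a RefSeq transcription start, against 22.8% of sites with SOX10 and 2.78% of MITF peaks with neither partner. A protein-coding gene contained 53.7% of them, against 57.5% with SOX10. Exons and introns were not analysed here. By chromosome, the sites made up from 6.05% of MITF peaks on chromosome 18 to 11.4% on chromosome 22.

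Under FHT-1015, fewer of the MITF peaks than of the TFAP2A peaks at the sites still had a peak of their own antibody over them. For MITF, 1737 of 7037 peaks (24.7%, 23.7 to 25.7) shared at least 1 bp with an FHT-1015 MITF peak, here called kept or retained, against 36.2% of the whole DMSO list. At sites with SOX10 the share was 52.9% (52.4 to 53.4), and at MITF peaks with neither partner 20.7% (20.3 to 21.2). For TFAP2A, 3181 of the 7055 peaks at the sites were retained (45.1%, 43.9 to 46.3), against 54.9% of the whole list and 66.3% (65.8 to 66.8) of TFAP2A peaks at sites with SOX10. Both factors were thus retained less often at the sites without SOX10 than at those with it, and less often than in their whole lists. The shares depended on the threshold: where the DMSO peak reached a −log10 p of 10, 43.5% were retained for MITF and 60.6% for TFAP2A, and 14.5% and 33.9% when the FHT-1015 peak had to reach 10 too.

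SMARCA4 and H3K27ac peaks at the sites followed the same order relative to sites with SOX10. Of 2322 SMARCA4 peaks, 1191 were retained (51.3%, 49.3 to 53.3), against 52.0% of the whole list and 74.8% at sites with SOX10. Of 1628 H3K27ac peaks, 1119 were retained (68.7%, 66.4 to 70.9), against 59.3% of the whole list and 78.8% at sites with SOX10. The SMARCA4 share was that of its whole list within counting error, and the H3K27ac share was above it. Both fell when sites with a SOX10 peak within 1 kb were left out. SMARCA4 retention was then 34.2% (31.8 to 36.8) and H3K27ac retention 46.3% (42.6 to 50.2), each below its whole list. A TFAP2A peak can be wider than the MITF peak it meets: 697 of the 7055 were touched by a SOX10 peak outside the MITF peak, and 372 also reached a MITF peak with SOX10.

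**Figure D1:**
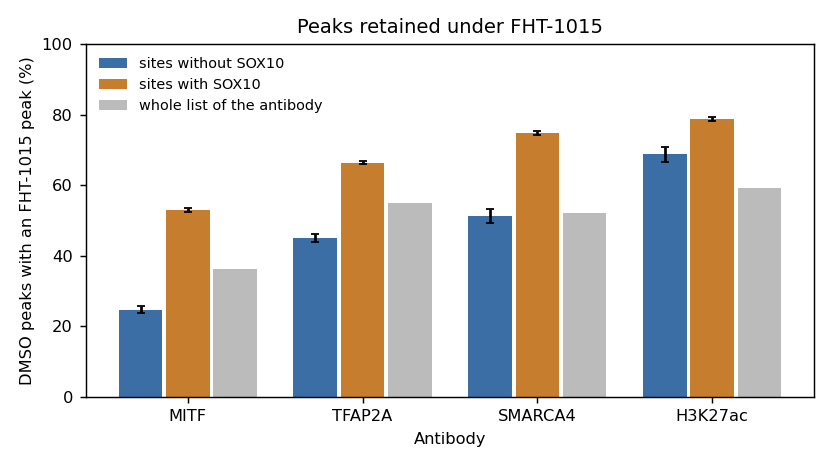
Share of DMSO peaks (%) that overlapped, by 1 bp or more, a peak called for that antibody under FHT-1015, for 4 antibodies. Blue bars are peaks at the sites without SOX10, orange bars peaks at sites with SOX10 and grey bars the whole DMSO list, with 95% Wilson intervals on the coloured bars. The blue bar is below the orange for each antibody, by the widest margin for MITF (24.7% against 52.9%).

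Relative depth was estimated for both factors. From the authors' fold and −log10 p, the MITF FHT-1015 library was estimated at 0.854 of the DMSO depth and the TFAP2A library at 0.960, and the median site had 13 MITF and 19 TFAP2A reads at its summit. Scaling the DMSO peaks to those depths left out 31 MITF peaks and 1 TFAP2A peak and gave retained shares of 24.8% and 45.1%. With so few peaks left out these shares could hardly change, and weaker detection in the FHT-1015 libraries was not tested. Of the 1737 kept MITF sites, 44 (2.53%) shared their FHT-1015 MITF peak with a DMSO MITF peak outside the sites. Of 2923 sites that kept TFAP2A, 218 (7.46%) had an FHT-1015 TFAP2A peak that also reached a MITF peak with TFAP2A and SOX10. Sharing of an FHT-1015 peak between the sites themselves was not counted.

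Taking each site by what lay on it under FHT-1015, 975 sites (13.9%) had both factors, 1948 (27.7%) TFAP2A only, 762 (10.8%) MITF only and 3352 (47.6%, 46.5 to 48.8) neither. At sites with SOX10 the shares were 42.4%, 24.3%, 10.5% and 22.8%. The share that lost both factors was thus larger without SOX10, the share with both smaller, and the share with MITF only alike within counting error. The factors went together within the sites: MITF was kept at 33.4% (31.7 to 35.1) of the sites that kept TFAP2A and at 18.5% (17.4 to 19.7) of those that lost it. At sites with SOX10 these were 63.5% and 31.5%.

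The fate of a site varied with its MITF strength in DMSO. Of 2465 sites with a −log10 p below 5, 7.87% had both factors under FHT-1015, 37.8% TFAP2A only and 4.95% MITF only. Of 543 sites between 20 and 50, the shares were 27.4%, 8.84% and 29.5%. Among the 43 strongest sites, at 50 or more, 46.5% (32.5 to 61.1) kept MITF only, 32.6% both, 4.65% TFAP2A only and 16.3% neither. TFAP2A without MITF was therefore the more frequent single outcome at weak sites and MITF without TFAP2A at strong ones. Of 7708 sites with SOX10 in this open-ended bin, 63.5% kept both and 22.8% MITF only. Their MITF −log10 p reached 412, against 134 without SOX10, so strength was not matched within the bin. Where both factors had at least 10 in DMSO, 29.3% (26.6 to 32.1) of 1066 sites kept both and 37.3% kept neither, against 58.4% and 15.8% of 17314 sites with SOX10.

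**Figure D2:**
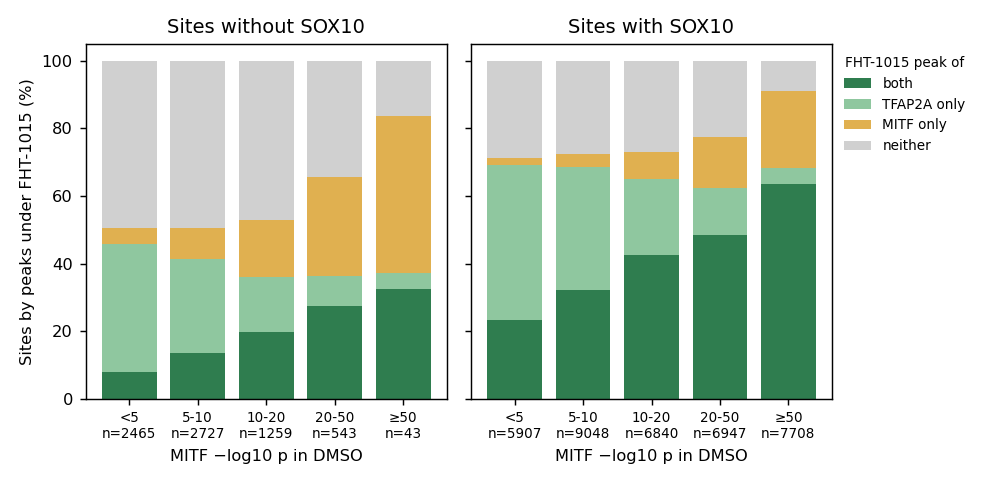
Share of sites (%) with FHT-1015 peaks of both factors, TFAP2A only, MITF only or neither, in bins of the authors' DMSO MITF −log10 p, with the number of sites under each bar. The left panel holds sites without SOX10 and the right panel sites with SOX10. From the weakest to the strongest bin, MITF only goes from 4.95% to 46.5% without SOX10 and from 2.10% to 22.8% with it, and both from 7.87% to 32.6% and from 23.3% to 63.5%.

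Position set the fates apart further. At the 663 promoter sites, 30.5% kept both factors, 43.4% TFAP2A only, 6.79% MITF only and 19.3% neither. At the 6374 sites away from promoters the shares were 12.1%, 26.0%, 11.2% and 50.6%. MITF peaks were retained in 37.3% of cases at promoters and in 23.4% away from them. Counted by TFAP2A peak, with each placed by its own distance to a start and not that of the MITF peak, the sets differ. On that count 80.7% of 699 TFAP2A peaks at promoters and 41.2% of 6356 away from them were retained. Among MITF and TFAP2A peaks split by position, promoter TFAP2A peaks were retained most often at these sites.

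Since sites with SOX10 were stronger and nearer to promoters, the shares were compared again within deciles of DMSO −log10 p. MITF retention without SOX10 minus with SOX10 was −28.2 percentage points as counted and −12.2 when matched on strength, lower without SOX10 in 9 of 9 deciles that held at least 20 peaks of each kind. Away from promoters the matched difference was −4.36 (9 of 9 deciles lower), from −23.5 unmatched, and at promoters −24.6 (8 of 8 lower), from −35.9. Most of the difference away from promoters was therefore not seen between peaks of the same decile, while at promoters the larger share of it was. In the weakest promoter decile 16.1% (10.6 to 23.8) of MITF peaks without SOX10 and 41.4% (38.0 to 44.8) of those with SOX10 were retained.

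For TFAP2A the difference was −21.0 points as counted and −4.38 when matched, lower without SOX10 in 6 of 10 deciles. Away from promoters it turned to 1.62 points, with the sites without SOX10 lower in 1 of 10 deciles. At promoters it was −7.94, lower without SOX10 in 5 of 10 deciles, among them the 4 weakest. In decile 1, 49.2% (40.5 to 57.9) were retained without SOX10 and 66.9% (63.3 to 70.2) with it. In deciles 5 to 10 both kinds were retained in 93.75% of cases or more, so little difference could show there. Matched peaks away from promoters that carried SMARCA4 in DMSO gave 7.01 for TFAP2A and −1.93 for MITF, and those without SMARCA4 gave −6.58 and −8.35, a split chosen after seeing the data. MITF retention was lower without SOX10 in 6 of 8 deciles with SMARCA4 and in 10 of 10 without it. With SMARCA4 it was higher without SOX10 in deciles 7 and 8, by 7.42 and 8.60 points, with overlapping intervals. Of the 6356 TFAP2A peaks at sites without SOX10 away from promoters, 4297 had no SMARCA4, and among these retention was lower than with SOX10 in 9 of 10 deciles. Among the 2059 with SMARCA4 it was lower in 1 of 10. The matched TFAP2A difference away from promoters thus had opposite signs with and without SMARCA4. Deciles were cut anew within each set, and a part of SMARCA4 itself in this was not tested. Compared instead with MITF peaks that had neither partner, MITF retention at the sites was 3.95 points higher as counted. When matched it was 2.74 points lower (−2.74), lower in 6 of 10 deciles and higher in deciles 1, 2, 3 and 5.

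**Figure D3:**
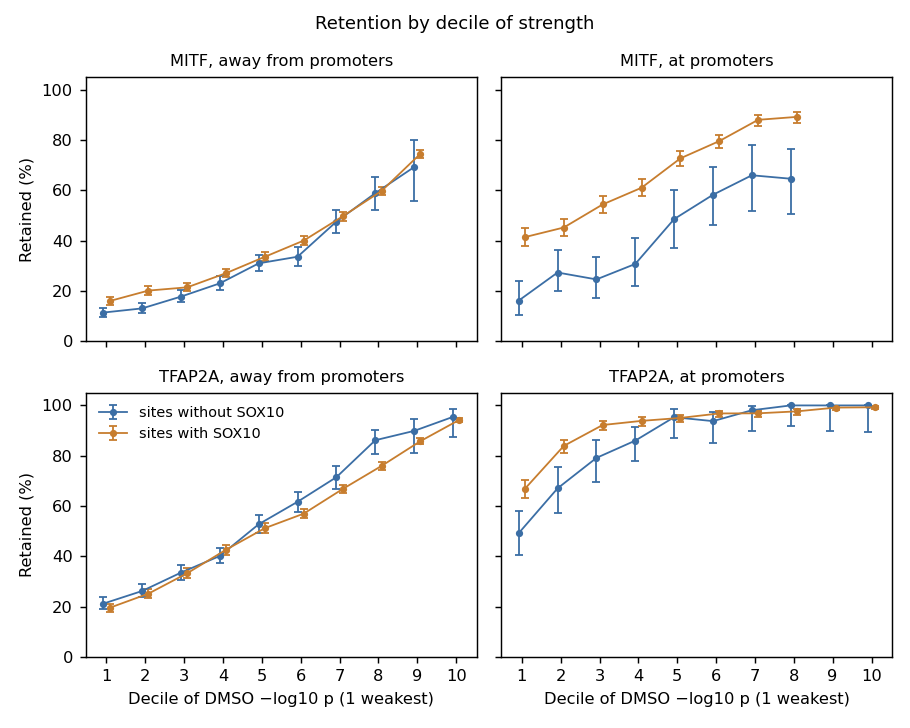
Retained share (%) of MITF (upper panels) and TFAP2A (lower panels) peaks by decile of DMSO −log10 p, decile 1 being the weakest, away from promoters (left) and at promoters (right). Blue is sites without SOX10, orange sites with SOX10, bars are 95% Wilson intervals, and deciles with fewer than 20 peaks of either kind are not drawn. The curves run close together away from promoters (matched difference −4.36 points for MITF and 1.62 for TFAP2A), and the MITF curves stand apart at promoters (−24.6). The TFAP2A curves at promoters stand apart in the weakest deciles and meet near the top of the scale in the stronger ones.

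Chromatin at the sites was mostly without the marks measured. A DMSO SMARCA4 peak touched 2274 sites (32.3%) and an H3K27ac peak 1602 (22.8%), against 82.5% and 74.9% of sites with SOX10 and 8.45% and 9.24% of MITF peaks with neither partner. Under FHT-1015 SMARCA4 was on 1763 sites and H3K27ac on 1180. Of the sites with SMARCA4 in DMSO, 1131 (49.7%) had it under FHT-1015, and 632 of the others (13.3%) had it only then. For H3K27ac, 1010 sites (63.0%) had it in both conditions and 170 (3.13%) only under FHT-1015. With SOX10 the shares in both conditions were 75.1% for SMARCA4 and 82.2% for H3K27ac. FHT-1015 inhibits the ATPase and SMARCA4 peaks report where the protein was precipitated, not its activity.

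The marks differed between fates. SMARCA4 was on 44.9% of the sites that kept both factors in DMSO and on 49.5% under FHT-1015, against 24.8% and 14.5% of those that kept neither. The sites with TFAP2A only had 39.5% and 31.0%, and those with MITF only 31.0% and 25.2%. H3K27ac was on 38.7% and 37.9% of sites that kept both, on 24.9% and 20.8% with TFAP2A only, on 22.8% and 17.2% with MITF only, and on 16.9% and 8.14% with neither. Sites that kept both were thus the ones most often marked in both conditions and the only fate with more SMARCA4 under FHT-1015 than in DMSO. They were also at promoters more often (20.7% against 3.82% with neither) and had DMSO medians of 8.81 for MITF and 15.8 for TFAP2A, against 6.12 and 8.51 with neither. The highest medians lay elsewhere, at 10.3 for MITF in the sites with MITF only and 17.1 for TFAP2A in those with TFAP2A only. The part of strength and position in this was not tested.

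Sorted by their DMSO marks, 949 sites with SMARCA4 and H3K27ac kept both factors in 25.9% (23.2 to 28.8) of cases and neither in 30.0%. The 4110 sites with neither mark kept both in 9.88% (9.003 to 10.8) and neither in 54.5%. Sites with SMARCA4 alone (1325) kept both in 14.5% and those with H3K27ac alone (653) in 20.1%. With SOX10 and both marks, 24078 sites kept both factors in 49.4% of cases.

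**Figure D4:**
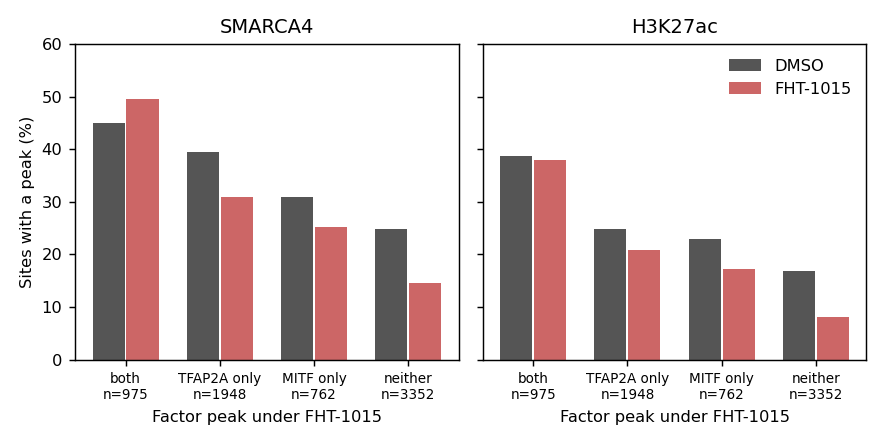
Share of sites without SOX10 (%) with a SMARCA4 peak (left) or an H3K27ac peak (right) in DMSO (grey) and FHT-1015 (red), by which factor had a peak under FHT-1015. SMARCA4 goes from 44.9% to 49.5% where both factors were kept and from 24.8% to 14.5% where neither was.

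SOX10 was absent from the sites by rule, yet often near. The nearest DMSO SOX10 peak was a median 5579 bp away, with 1685 sites (23.9%) within 1 kb and 1412 beyond 20 kb. TFAP2A was kept at 58.7% (53.5 to 63.8) of sites less than 100 bp from a SOX10 peak and at 36.9% (34.4 to 39.4) of those 20 kb or more away. MITF was kept at 30.1% (25.5 to 35.1) and 22.7% (20.6 to 25.0). The step lay at about 1 kb, and between 1 kb and the farthest bin the shares differed by little: 22.8%, 22.6% and 22.7% for MITF and 39.5%, 35.7% and 36.9% for TFAP2A.

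Promoters were also more frequent near SOX10, at 29.5% of sites less than 100 bp away and 4.26% of the farthest, so the shares were split by position. At promoters, MITF was kept at 43.0% (38.4 to 47.7) of 430 sites with SOX10 within 1 kb and at 26.6% (21.3 to 32.6) of 233 without, and TFAP2A at 80.2% and 62.2%. Away from promoters MITF was kept at 26.8% (24.4 to 29.3) of 1255 and 22.5% (21.4 to 23.7) of 5119 sites, and TFAP2A at 46.7% and 36.1%. The near sites were the higher in each pair, and they also carried more H3K27ac, on 52.9% against 11.2% away from promoters, and more SMARCA4, on 51.2% against 24.8%. Their DMSO TFAP2A peaks were stronger as well, with medians of 21.2 against 13.6 at promoters and 13.2 against 9.75 away. The part of these in the shares kept was not tested. With the 5352 sites that had no SOX10 within 1 kb, MITF retention was 22.7% and TFAP2A retention 38.9%. Just inside the rule, 166 sites lay at most 50 bp from a SOX10 peak and kept MITF in 25.9% and TFAP2A in 52.4% of cases. Just outside it, 272 sites shared at most 50 bp with a SOX10 peak and kept MITF in 33.1% and TFAP2A in 62.1%. These edge shares are given without intervals, and whether they differ was not tested.

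**Figure D5:**
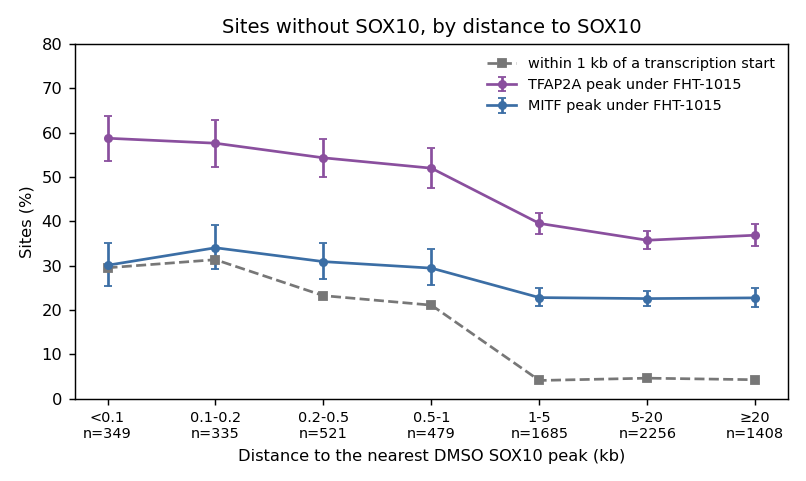
Share of sites without SOX10 (%) with a MITF (blue) or TFAP2A (purple) peak under FHT-1015, with 95% Wilson intervals, and share within 1 kb of a transcription start (dashed grey), by distance in kb to the nearest DMSO SOX10 peak. All 3 are higher within 1 kb, where TFAP2A lies at 52.0% or more, than beyond it, where it lies at 39.5% or less.

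SOX10 peaks appeared at 148 sites (2.10%, 1.79 to 2.47) under FHT-1015, on 6.26% of the sites that kept both factors and 0.477% of those that kept neither. The 5 highest all kept both factors and lay within 123 bp of a DMSO SOX10 peak. The highest, nearest to ART4 (chromosome 12, 14850520 to 14850767, hg38), had a SOX10 −log10 p of 161 under FHT-1015, with MITF at 7.66 in DMSO and 288 under FHT-1015 and TFAP2A at 72.4 and 236. It lay 93 bp from a DMSO SOX10 peak. The site inside PDE8A, a cAMP phosphodiesterase gene (chromosome 15, 85047724 to 85047987), had SOX10 at 12.8, MITF at 5.14 and 9.05 and TFAP2A at 15.8 and 29.6. The site inside GBE1, the glycogen branching enzyme gene (chromosome 3, 81743056 to 81743296), had SOX10 at 12.6 and TFAP2A at 162 and 140. These sites stand at the edge of the rule, next to SOX10.

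Of the 10 strongest sites by DMSO MITF, 5 kept both factors, 3 MITF only and 2 neither. The first, 11781 bp from H3-4, a histone H3 gene, at chromosome 1, 228437142 to 228437820, had MITF at 134 in DMSO and 12.9 under FHT-1015, TFAP2A at 89.4 and 14.1, and SMARCA4 at 13.6 and 5.67. FCGRT, which encodes the neonatal Fc receptor, had the one promoter site among them (chromosome 19, 49513128 to 49513675), with MITF at 87.1 and 54.2, TFAP2A at 19.3 and 22.9 and H3K27ac at 25.6 and 41.5. Inside KCP (chromosome 7, 128904343 to 128904982), a gene of a secreted regulator of bone morphogenetic protein signalling, MITF had 91.2 and 84.5 and TFAP2A 2.67 and 9.06, with no SMARCA4 or H3K27ac peak in either condition. The KCP site lay 15681 bp from SOX10 and the FCGRT site 12336 bp, so strong MITF peaks over 10 kb from SOX10 were among those kept, the KCP site without either mark.

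Sites that kept only MITF included one inside PTPRJ, a receptor tyrosine phosphatase gene (chromosome 11, 48029080 to 48029786), with MITF at 98.1 and 32.8, TFAP2A at 16.3 in DMSO and H3K27ac at 47.0 and 35.3. Another lay inside ADNP, a chromatin regulator gene (chromosome 20, 50916268 to 50916601), with MITF at 75.2 and 11.4 and TFAP2A at 14.5 in DMSO. The site inside NUDT3 and the readthrough gene RPS10-NUDT3 (chromosome 6, 34298880 to 34299514) had MITF at 102 and 12.6 and TFAP2A at 4.84 in DMSO. SMARCA4 was found under FHT-1015 at the PTPRJ and ADNP sites and not at the NUDT3 site.

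Sites that kept only TFAP2A included one inside RUNX3, a Runt family transcription factor gene (chromosome 1, 24939807 to 24940193), with MITF at 32.4 in DMSO and TFAP2A at 88.8 and 5.87. It lay 41420 bp from SOX10. The site inside RAD51B, a homologous recombination gene (chromosome 14, 68624523 to 68624885), had MITF at 47.2 and TFAP2A at 29.9 and 9.35. The site inside MAPK13, the p38 delta kinase gene (chromosome 6, 36131672 to 36132112), had MITF at 35.3 and TFAP2A at 5.99 and 3.25. Strong MITF peaks were thus lost at sites where even a weak TFAP2A peak was still found.

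Strong sites that kept neither factor were found inside and outside genes. Inside DYM (chromosome 18, 49343154 to 49343611), MITF had 75.9, TFAP2A 63.8 and SMARCA4 15.1 in DMSO, and none of them had a peak under FHT-1015. Inside GATA6, a zinc finger transcription factor gene (chromosome 18, 22193437 to 22193828), MITF had 60.3 and TFAP2A 29.3, with no mark in either condition. Inside UNK (chromosome 17, 75809101 to 75809574), MITF had 68.3 and TFAP2A 2.88, and H3K27ac had 87.3 in DMSO and 9.10 under FHT-1015. Inside GNG7, a G protein gamma subunit gene (chromosome 19, 2616728 to 2617244), MITF had 48.6 and TFAP2A 12.1. The DYM, GATA6, UNK and GNG7 sites lay 820, 10250, 17520 and 2664 bp from a DMSO SOX10 peak.

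By gene, 4346 of 20056 protein-coding genes (21.7%) had at least 1 site in the gene or within 10 kb. Of these, 34.3% had a site that kept MITF and 56.2% a site that kept TFAP2A. The genes with most sites were long, from BAIAP2L1 at 109441 bp to LRP1B at 1899594 bp, and held many other MITF peaks. GSE1, a corepressor-associated gene, had 9 sites, of which 2 kept MITF and 6 TFAP2A. BAIAP2L1, an actin and membrane-bending adaptor gene, had 6, of which 3 kept MITF and 5 TFAP2A, and RAI1, a chromatin-associated regulator gene, had 6 with the same counts. LRP1B, a giant lipoprotein receptor family gene, and PRKCH, the protein kinase C eta gene, had 6 each and kept neither factor at any. At the sites with SOX10 in the same genes, LRP1B kept MITF at 6 of 10 and TFAP2A at 5, and PRKCH at 4 and 6 of 9.

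The gene lists below are read against the shares over all genes and sites: 21.7% of protein-coding genes had a site, 24.7% of sites kept MITF and 41.5% kept TFAP2A. With 1 to 12 sites a list, no list is set apart from them. Of 28 pigment and melanosome genes, 5 (17.9%) had a site, with 9 sites in all beside 106 sites with SOX10. MITF was kept at 2 of the 9 and TFAP2A at 3, all in MREG, the melanoregulin gene of melanosome transport. There the sites at chromosome 2, 216006171 to 216006463 and 216006587 to 216006781, had MITF at 8.40 and 3.68 in DMSO and at 5.10 and 14.3 under FHT-1015. They share a TFAP2A peak, with 14.004 in DMSO and 17.5 under FHT-1015, so they are not independent. The single sites at TYR, the tyrosinase gene, DCT, the dopachrome tautomerase gene, and RAB27A and RAB38, GTPase genes of melanosome traffic, kept neither factor. In that order, they lay 711, 10598, 1 and 4072 bp from a DMSO SOX10 peak. The DCT site (chromosome 13, 94542978 to 94543227) had MITF at 10.7 and TFAP2A at 3.81 in DMSO, and the TYR site (chromosome 11, 89169899 to 89170088) had 2.65 and 10.9.

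Among genes of lineage, AP-2 and MITF family factors, 5 of 20 (25%, beside 21.7% of all genes) had 7 sites, of which 1 kept MITF and 4 TFAP2A. The 3 sites in SOX5, a SoxD factor gene, kept TFAP2A only: at chromosome 12, 23828091 to 23828322, MITF had 5.88 in DMSO and TFAP2A 30.8 and 10.5. The site in PAX3, a paired-box factor gene of the neural crest (chromosome 2, 222276060 to 222276305), kept both, with MITF at 2.30 and 8.11, TFAP2A at 2.59 and 11.8 and H3K27ac at 17.97 and 36.6. The sites in TFEB and TFEC, relatives of MITF, kept neither, with MITF at 17.2 and 13.8 in DMSO. They lay 396 and 2011 bp from a DMSO SOX10 peak. The site near TFAP2A itself (chromosome 6, 10394000 to 10394189) was weak, with 4.23 for MITF and 3.83 for TFAP2A, and kept neither.

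Lysosome, autophagy and nutrient-sensing genes, many of which are regulated by the MITF family, had 12 sites in 8 of 30 genes (26.7%), 3 with MITF kept and 5 with TFAP2A kept, shares near those over all sites (24.7% and 41.5%). At the promoter of CTSD, the cathepsin D gene (chromosome 11, 1760507 to 1760836), MITF had 23.8 in DMSO and no FHT-1015 peak, and TFAP2A had 17.3 and 20.7. At the promoter of UVRAG, an autophagy gene (chromosome 11, 75815652 to 75815911), MITF had 5.14 in DMSO only and TFAP2A 69.7 and 91.0, with SMARCA4 at 11.9 and 40.0. The UVRAG promoter site lay 187 bp from a DMSO SOX10 peak and had a SOX10 peak of 3.03 under FHT-1015. Both factors were kept at 1 site each in MAP1LC3B, FNIP2 and RRAGD, where RRAGD (chromosome 6, 89375412 to 89375687), a Rag GTPase gene, had MITF at 6.39 and 3.50 and TFAP2A at 21.7 and 6.02.

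Growth, cell cycle and survival genes had 6 sites in 5 of 21 genes (23.8%, beside 21.7% of all genes), 1 with MITF kept and 3 with TFAP2A kept. The one that kept MITF kept both and lay in KIT, the receptor tyrosine kinase gene of melanoblasts (chromosome 4, 54701091 to 54701403), with MITF at 32.8 and 9.05 and TFAP2A at 37.5 and 31.6, and no mark in either condition. The promoter site of CDK6, a G1 kinase gene (chromosome 7, 92835891 to 92836102), had MITF at 3.37 in DMSO only and TFAP2A at 106 and 145. It lay 68 bp from a DMSO SOX10 peak and had a SOX10 peak of 2.95 under FHT-1015. In the uveal melanoma and G alpha q list, 4 of 18 genes (22.2%) had 11 sites, 3 with MITF kept and 3 with TFAP2A kept. The 4 sites in PLCB4, the phospholipase C beta 4 gene, kept neither. They lay 173, 2852, 1849 and 70 bp from a DMSO SOX10 peak.

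Genes of BAF complex subunits had 9 sites in 8 of 28 genes (28.6%, beside 21.7% of all genes), 3 with MITF kept and 6 with TFAP2A kept. At the promoter of SMARCA2, the other ATPase that FHT-1015 inhibits (chromosome 9, 2014804 to 2015076), MITF had 4.49 in DMSO only, and TFAP2A had 33.1 and 60.9. In ARID1B, a subunit gene of canonical BAF (chromosome 6, 157079268 to 157079662), MITF was kept with 12.6 and 31.1 and TFAP2A, at 4.26 in DMSO, was not. This ARID1B site lay 232 bp from a DMSO SOX10 peak and had a SOX10 peak of 2.97 under FHT-1015. In SMARCC1, a core scaffold subunit gene (chromosome 3, 47769634 to 47770235), neither was kept, with 17.9 for MITF and 17.5 for TFAP2A in DMSO. Of 10 ubiquitously used genes, GAPDH alone (10%) had a site, which kept TFAP2A only.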

How the data were processed

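Peak lists of 10 immunoprecipitated libraries were used; the DMSO input was not analysed here. The submitters' processing notes name hg38, BWA, SAMtools, Picard and MACS2, with no role, order or version. The deposited lists give a fold enrichment (a ratio), a −log10 p and −log10 q, a summit and an integer score per peak, as the authors computed them. The score was not used. No list repeated a peak's coordinates. Peaks of 1 library each were compared by overlap of at least 1 bp in Python 3.11.15 with numpy 2.4.6, pandas 2.3.3 and scipy 1.17.1. Broad lists were an alternative for SMARCA4 and H3K27ac.

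The sites, gene lists and comparisons were chosen with earlier results of these data known. Sites named are the 10 strongest by MITF, the 10 strongest that kept both, neither or TFAP2A only, the 5 that kept MITF only, the 5 with the strongest FHT-1015 SOX10 peaks, the 10 genes with most sites, and genes of the lists; examples from these are printed. Matching split peaks into 10 deciles of the antibody's own DMSO −log10 p, kept deciles with at least 20 peaks per class (8 to 10 of them), and averaged their differences, each weighted by the product of the class sizes over their sum, so that well-filled deciles count most. Promoters are within 1 kb of 34942 RefSeq starts. Depth ratios came from reads recovered from fold and −log10 p (whole within 0.01 for 99.998% of DMSO MITF peaks). The overlap and matching steps were tested on simulated data. Alternatives were stricter thresholds, other overlaps, SOX10 distance, depth, strength and position.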

Additional observations from a re-analysis of the deposited data

How the results depend on the processing

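Values are of 1 library per condition, so intervals say nothing about biological spread, and a site just under a caller's threshold counts as lost. No paired analysis was possible because each antibody had 1 library per condition. The number of sites, 7037, became 1066 with a −log10 p of at least 10 in MITF and TFAP2A and 17437 when only SOX10 peaks of at least 10 counted. Retained shares, in the order MITF, TFAP2A, SMARCA4 and H3K27ac, were 43.5, 60.6, 90.5 and 91.9% for DMSO peaks of at least 10, 14.5, 33.9, 67.4 and 77.8% with at least 10 in both lists, 21.003, 39.7, 43.1 and 56.5% with 50% of the peak covered, 23.3, 40.7, 35.5 and 46.7% with summits within 200 bp, and 22.7, 38.9, 34.2 and 46.3% with no SOX10 within 1 kb. Broad lists gave 57.2% for SMARCA4.

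MITF and TFAP2A retention without minus with SOX10 was −24.0 and −14.9 points for DMSO peaks of at least 10, −29.7 and −22.9 with at least 10 in both lists, −22.2 and −17.5 with 50% covered, −25.7 and −18.8 with summits within 200 bp, −30.1 and −27.2 with no SOX10 within 1 kb, and −12.2 and −4.38 matched on strength. Away from promoters it was −23.5 and −17.5, and matched −4.36 and, reversed, 1.62. At promoters, added after seeing the data as were the SMARCA4 splits, it was −35.9 and −11.8, and matched −24.6 and −7.94. Matched peaks away from promoters gave −1.93 and, reversed, 7.01 with SMARCA4 and −8.35 and −6.58 without. The MITF difference kept its sign under every setting run, though not in every decile of the peaks with SMARCA4. Matching holds the range of a single strength value alike by construction, not strength within a decile, and the cause was not tested elsewhere. With 50 kb either side, 7980 genes had a site.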
